A study of Homo sapiens with 24 samples.

Results

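Heat shock proteins of the cytosol and of mitochondria were followed through a lineage of doxorubicin-resistant lymphoma cells. The 10 genes were taken from a list of names (HSPA8, HSPH1, HSP90AA1, HSP90AB1, HSPD1, HSPE1, HSPB1, DNAJA1, DNAJB1 and BAG3) and found through the array's probe annotation, as 10 of the 9533 genes measured. They had 17 probes, of which 15 passed the detection filter, and each gene was read from its brightest probe, which was detected on all 24 arrays. The starting line, Ramos, was established from human Burkitt lymphoma, a cancer of B cells. Ramos was grown without drug. The 5 resistant lines form a single chain of selection, and each was grown and harvested in the concentration of doxorubicin it is named for. Dox100 was raised from Ramos in 100 nM, Dox250 from Dox100 in 250 nM, Dox500 from Dox250 in 500 nM, Dox750 from Dox500 in 750 nM and Dox1000 from Dox750 in 1000 nM. The drug, used against lymphomas, damages DNA by way of topoisomerase II. Selection history and the drug in the medium cannot be told apart here. All lines grew in RPMI medium with fetal bovine serum, and 1 culture of each line was split into 4, each read on 1 Illumina bead array. P-values therefore measure only the spread between split cultures, which may be technical, and the number of arrays limits the precision.

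Heat shock proteins bind unfolded or partly made proteins and keep them from clumping. HSP70 proteins such as the constitutive HSPA8 hold short hydrophobic stretches in cycles of ATP use, J-domain proteins (DNAJA1, DNAJB1) bring them their clients and start the ATP step, and exchange factors (HSPH1, BAG3) release the clients again. HSP90 proteins (HSP90AA1, HSP90AB1) finish the folding of kinases and steroid receptors, HSPD1 and HSPE1 form the folding chamber of the mitochondrial matrix and its lid, and the small heat shock protein HSPB1 holds unfolded clients without ATP. Many of these genes are raised together by the transcription factor HSF1, which binds heat shock elements, repeats of the letters GAA in alternating directions. Tumour cells are known to lean on them to keep mutated or overproduced proteins folded.

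The promoters are shown first because the heat shock element is the sequence through which HSF1 is known to act on such genes, and the 10 genes differ in whether their windows hold it. RefSeq windows of GRCh38.p14, from 250 bases before to 50 bases after each annotated start, were found for 10 of the 10 genes, 16 windows in all. A full element was searched as GAANNTTCNNGAA or TTCNNGAANNTTC, which are each other's reverse complement, so both strands are covered. The shorter inward pair GAANNTTC and outward pair TTCNNGAA, each its own reverse complement, are contained in every full element. Windows are printed 5′ to 3′ on the gene's strand, with full elements in capitals, and in HSPB1, which had no full element, the inward pair in capitals. The longest stretches show the whole upstream part of a window, the shorter ones only the element and its surroundings. HSPA8 lies at chr11:123062137-123062386 (minus strand), HSP90AA1 at chr14:102087100-102087152 (minus), HSP90AB1 at chr6:44247758-44247863 (plus), HSPD1 at chr2:197500048-197500090 (minus), DNAJA1 at chr9:33025023-33025288 (plus) and HSPB1 at chr7:76302423-76302672 (plus).
HSPA8: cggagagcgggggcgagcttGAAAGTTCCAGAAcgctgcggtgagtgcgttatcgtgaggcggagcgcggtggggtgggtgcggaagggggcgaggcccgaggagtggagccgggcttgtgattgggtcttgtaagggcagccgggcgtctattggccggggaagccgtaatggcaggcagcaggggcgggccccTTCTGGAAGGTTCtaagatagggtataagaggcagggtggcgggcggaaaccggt
HSP90AA1: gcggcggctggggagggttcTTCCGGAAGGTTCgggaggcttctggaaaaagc
HSP90AB1: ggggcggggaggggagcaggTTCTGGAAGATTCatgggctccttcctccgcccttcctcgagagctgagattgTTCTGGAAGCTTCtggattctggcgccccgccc
HSPD1: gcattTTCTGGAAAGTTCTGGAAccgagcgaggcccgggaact
DNAJA1: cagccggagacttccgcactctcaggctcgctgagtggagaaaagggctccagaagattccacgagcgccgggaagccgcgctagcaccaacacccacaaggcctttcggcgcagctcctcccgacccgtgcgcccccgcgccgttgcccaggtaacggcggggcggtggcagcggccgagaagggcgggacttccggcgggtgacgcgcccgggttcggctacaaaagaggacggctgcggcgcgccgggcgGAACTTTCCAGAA
HSPB1: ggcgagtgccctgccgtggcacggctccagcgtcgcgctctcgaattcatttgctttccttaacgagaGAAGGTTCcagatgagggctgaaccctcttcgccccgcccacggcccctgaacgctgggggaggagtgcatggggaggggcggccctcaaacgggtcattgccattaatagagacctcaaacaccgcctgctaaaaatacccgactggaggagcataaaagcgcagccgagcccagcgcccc

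Full elements were found in windows of 5 of the 10 genes (HSPA8, HSP90AA1, HSP90AB1, HSPD1 and DNAJA1), or 5 of 16 windows, while 172 of the 35116 windows of all RefSeq genes (0.49%) held one. HSPA8 had full elements at positions -230 to -218 and -55 to -43 from its start. In HSP90AB1 they lay at -165 to -153 and -112 to -100, and HSP90AA1 had a full element at -88 to -76. In HSPD1 a pair of overlapping ones spanned -245 to -228 from the second of its annotated starts, and the element of DNAJA1 lay just past its start, at 4 to 16. Of the 7 genes called lower in Dox1000 than in Ramos, HSPA8, HSP90AA1, HSP90AB1 and HSPD1 had a full element and HSPH1, HSPB1 and DNAJB1 had none. The inward pair was found in 8 of the 16 windows, against 6.77% of all windows, and the outward pair in 5 of 16, against 7.74%. HSPB1 had the inward pair alone, at -182 to -175, and DNAJB1 had it in some of its windows. Windows of HSPH1, HSPE1 and BAG3 held no exact match to any of these letters. HSPD1 and HSPE1 lie head to head on chromosome 2, with starts 105 bases apart for the first annotated start of HSPD1 and 539 for the second. The full elements belong to the window of the second start and lie outside the HSPE1 window. Only exact matches within these windows were counted, so elements with a changed letter, or lying elsewhere, were not sought. These matches are descriptions of sequence, and binding was not measured.

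**Figure D1:**
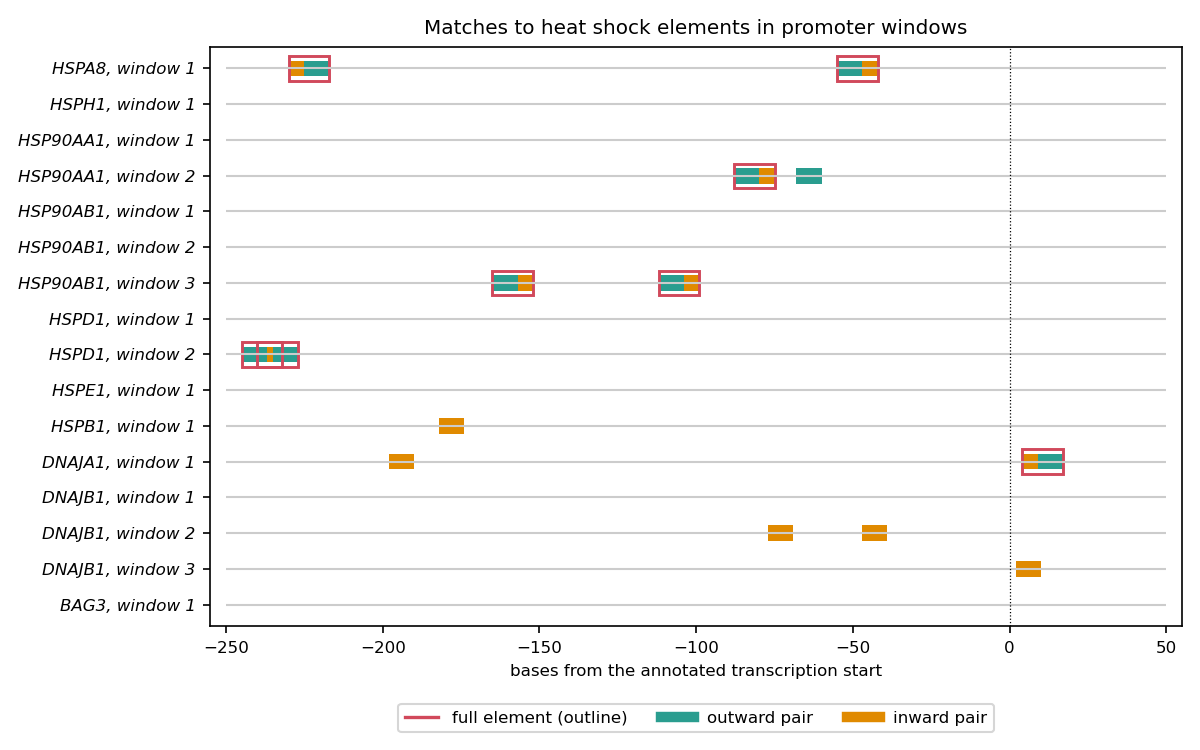
Matches to heat shock element letters in the 16 RefSeq promoter windows of the 10 genes. The x axis gives the distance from the annotated start in bases (0 marks the start), each row is a window, outlines mark full elements, and filled blocks mark outward and inward pairs. Full elements are seen in rows of 5 genes, and rows of HSPH1, HSPE1 and BAG3 are empty.

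The arrays had median signals between 121.1 and 163.4, with 14158 to 15564 of 47323 probes detected. ABCB1, a pump that carries doxorubicin out of cells, was undetected on all 4 Ramos arrays, detected on 1 of 4 arrays in Dox100 and on 4 of 4 in each later line, where its lowest bound over Ramos was 16.3-fold, in Dox250. Of the B cell markers, CD79A, CD79B, MS4A1 and CD22 were measured in every line, and PAX5 was not detected. Some markers of other lineages differed between Dox1000 and Ramos. The summed intensity of the 3 measured of 7 T and NK cell markers ran from 214 to 258 in Dox1000, against 75.7 to 80.6 in Ramos, with CD3D, CD3G, CD2 and CD8A undetected, and from 116 to 269 over the arrays of the other resistant lines. Of the 7 myeloid markers 2 were measured, and in Dox1000 against Ramos CST3 was called higher and FCGR3A lower. Their sum ran from 194 to 214 in Dox1000 against 106 to 133 in Ramos, and in Dox500, at 104 to 147, it overlapped Ramos. Of the 6 epithelial and stromal markers 1 was measured, DCN, at 152 to 190 in Dox1000 and 81.5 to 98.6 in Dox750 against 23.6 to 24.1 in Ramos, while Dox100 (22.6 to 30.7) and Dox250 (23.035 to 29.6) overlapped Ramos. DCN, CST3 and the T and NK cell markers PRF1, NKG7 and CD3E were undetected on all 4 Ramos arrays. Their Ramos values are therefore background signal. In Dox1000 DCN was at least 3.73-fold higher, CST3 3.41-fold, PRF1 2.33-fold and NKG7 1.84-fold. CD3E was detected on 1 of 4 Dox1000 arrays. B cell markers summed to 24661 to 26555 in Dox1000 and to 19069 to 21627 in Ramos. In that comparison CD79A, CD79B and MS4A1 were called higher, and CD22 was called lower (log2 change -0.61, limma adjusted p = 0.000216). The part of these markers in the heat shock results was not tested. Fewer cells of a type and less RNA per cell cannot be told apart in bulk RNA.

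Most of the heat shock genes were lower in Dox1000 than in Ramos. Of the 10 genes, 7 fell (HSPA8, HSPB1, HSP90AB1, HSP90AA1, DNAJB1, HSPD1 and HSPH1), BAG3 rose, and DNAJA1 and HSPE1 did not pass the test (limma, Benjamini-Hochberg adjusted p under 0.05 over 15765 probes). Among all genes measured 29.7% were called lower and 27.6% higher in that comparison, 57.3% in all. The median log2 change of the 10 genes was -0.43, beside -0.02 over all genes. The other lines moved fewer of them against Ramos. Dox100 had 1 gene higher and 2 lower (24.1% of all genes were called higher and 22.2% lower, 46.3% in all), and Dox250 had 2 higher and 3 lower (23.9% and 25.5%, 49.4% in all). In Dox500, 2 were higher and 2 lower (25.2% and 23.2%, 48.4% in all), and the same numbers held in Dox750 (26.8% and 25.9%, 52.7% in all). In these 4 lines the counts lay near or below the share of all genes called. These 5 comparisons share the Ramos arrays.

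**Figure D2:**
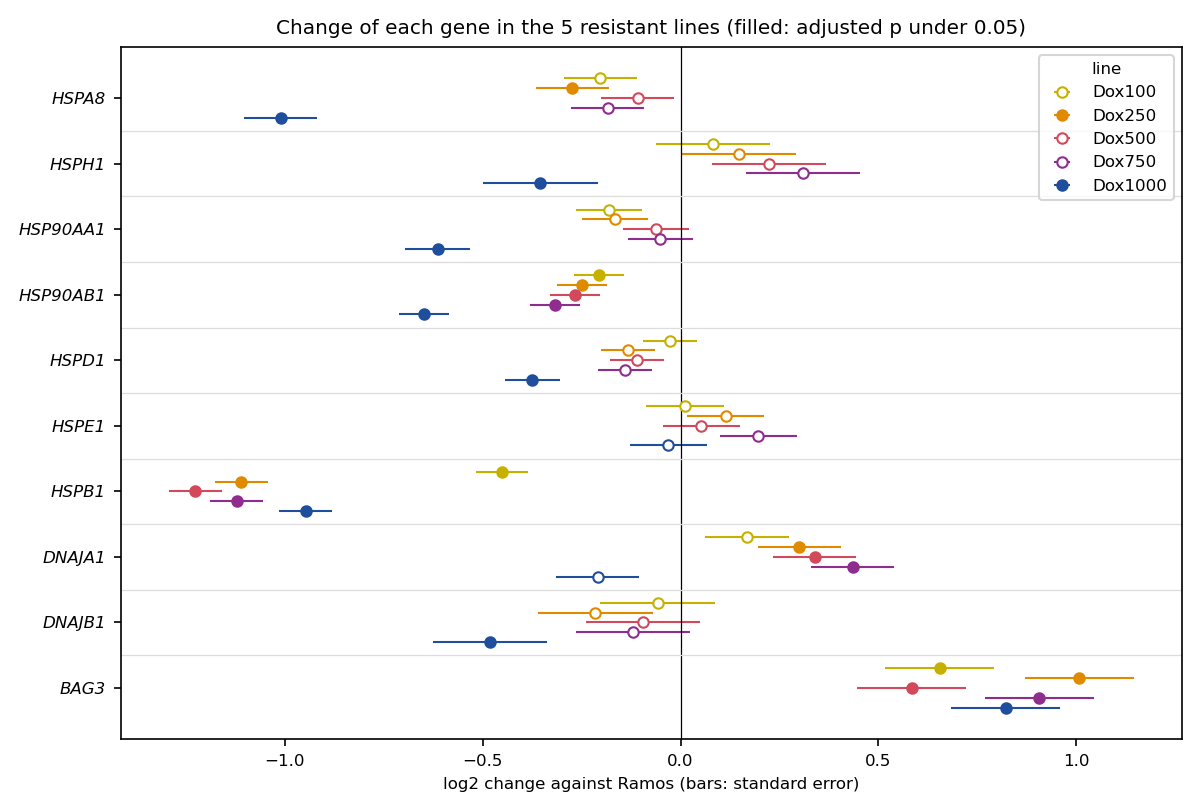
Log2 change of each of the 10 genes in the 5 resistant lines against Ramos. The x axis gives the log2 change, bars are standard errors from limma (4 arrays a line), and filled points passed at an adjusted p under 0.05. HSPB1 lies left of 0 and BAG3 right of 0 in all 5 lines, and in Dox1000 7 genes lie left of 0 with filled points.

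The fall came mostly with the last selection step. Between Dox1000 and its parent Dox750, 6 of the 10 genes fell (HSPA8, HSPH1, DNAJA1, HSP90AA1, HSP90AB1 and HSPD1) and none rose, where 11.7% of all genes were called lower and 12.1% higher. The median log2 change was -0.35, beside -0.01 over all genes, and 9 of 10 changes were negative. Without background correction, and with the authors' deposited table, 7 were lower, DNAJB1 among them. HSPB1 was called higher in both (0.17, limma adjusted p = 0.0473). Of all 9533 genes 2462 were called in each, 51.1% of them higher. An intensity trend added calls of HSPE1 and DNAJB1, both lower, and of HSPB1, higher. Under median scaling 5 were lower and 0 higher, where 2006 of the 9533 genes were called, 50.9% of them higher. At the earlier steps the counts were small. Dox250 against Dox100 had 1 gene lower, HSPB1 (8.25% of all genes were called lower and 5.21% higher), and Dox500 against Dox250 had 1 lower, BAG3 (6.81% and 7.86%). Between Dox750 and Dox500 none of the 10 was called by limma, 1 had an unadjusted p under 0.05, and 7.99% of all genes were called (3.98% higher and 4.02% lower). Dox1000 enters both the comparison with Ramos and that with Dox750, so they are not independent of each other.

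By its brightest probe HSPA8, the constitutive cytosolic HSP70, had the largest fall of the 10 genes in Dox1000 against Ramos. HSPB1 was close, at -0.95 ± 0.07, and their difference was not tested. The log2 levels of HSPA8 were 13.67, 13.61, 13.80 and 13.64 in Ramos, 13.52, 13.56, 13.64 and 13.18 in Dox100, and 13.16, 13.52, 13.51 and 13.43 in Dox250. They were 13.62, 13.49, 13.58 and 13.60 in Dox500, 13.52, 13.37, 13.52 and 13.57 in Dox750, and 12.70, 12.75, 12.57 and 12.66 in Dox1000. All Dox1000 arrays lay below every array of the other 5 lines, and those 5 lines overlapped each other in part. The log2 change was -1.01 ± 0.09 in Dox1000 against Ramos (SE, n = 4 per line, limma adjusted p = 4.67e-09), a fold of 2.01, and -0.83 ± 0.09 against Dox750 (limma adjusted p = 1.20e-06). Its other probe gave -0.82 in both comparisons. In the order of line means Ramos, Dox500, Dox750, Dox100 and Dox250, no neighbours differed beyond their spread, and Dox250 and Dox1000, the last neighbours, did. HSPA8 was also called lower in Dox250 than in Ramos (log2 change -0.27, limma adjusted p = 0.0181), but its other probe was at -0.02 there. In Dox100 the change of -0.20 did not pass (limma adjusted p = 0.0815) but did without Dox100 replicate 3 (-0.26, limma adjusted p = 0.0386). The Dox250 call was lost without Dox250 replicate 1 (-0.19, limma adjusted p = 0.0937) or Ramos replicate 3 (-0.23, limma adjusted p = 0.0617). A gene for a small nucleolar RNA that lies within an intron of HSPA8, SNORD14C, chosen after its values were seen, also fell at the last step. Its log2 change was -1.04 ± 0.17 in Dox1000 against Dox750 (limma adjusted p = 0.000125), with 3 of 4 Dox1000 arrays detected. A second such gene, SNORD14D, was at -0.14 ± 0.20 (limma adjusted p = 0.684), detected on 1 of 4 arrays in each of these lines.

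**Figure D3:**
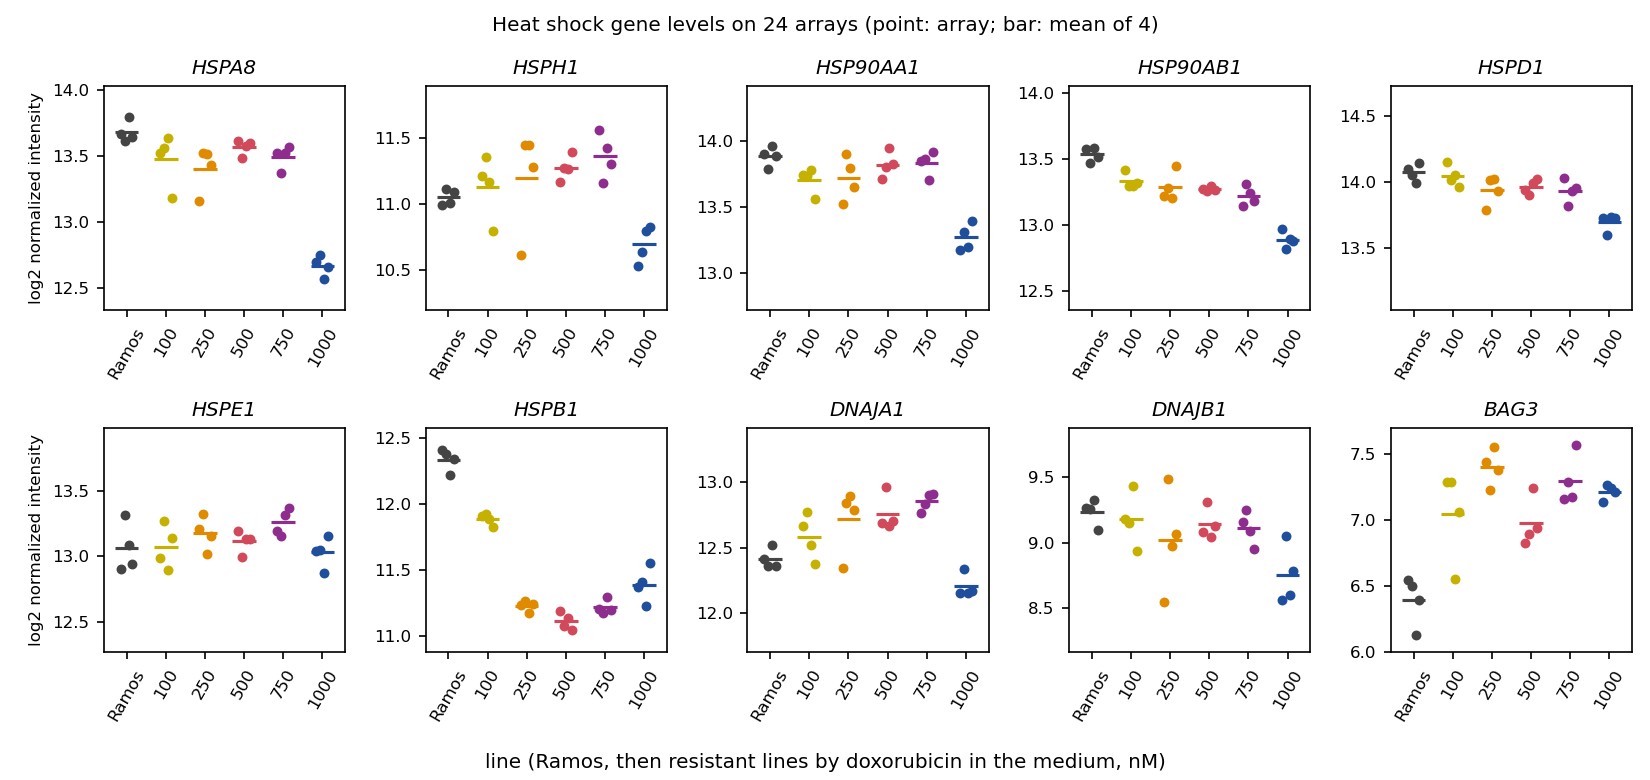
Log2 normalized intensity of the 10 genes on the 24 arrays. Each panel is a gene with its own y range, points are arrays, horizontal bars are means of 4, and the x axis runs from Ramos through the resistant lines by doxorubicin in the medium (nM). HSPA8, HSP90AA1 and HSP90AB1 are lowest in the 1000 nM line, HSPB1 is highest in Ramos, and BAG3 is lowest in Ramos.

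HSPH1, a large HSP70 relative that releases HSP70's bound nucleotide, and DNAJA1, a farnesylated J-domain protein, had similar courses. HSPH1 had log2 levels of 10.53, 10.64, 10.80 and 10.82 in Dox1000, against 11.56, 11.16, 11.42 and 11.30 in Dox750. DNAJA1 had 12.15, 12.34, 12.16 and 12.17 in Dox1000, against 12.76, 12.83, 12.90 and 12.91 in Dox750. For both genes every Dox1000 array lay below every Dox750 array. The log2 change at this step was -0.66 ± 0.14 for HSPH1 (limma adjusted p = 0.00207) and -0.64 ± 0.11 for DNAJA1 (limma adjusted p = 0.000137). Against Ramos, whose log2 levels were 10.99, 11.12, 11.0045 and 11.09 for HSPH1, the gene was lower in Dox1000 by a small margin (-0.35 ± 0.14, limma adjusted p = 0.0433). That call was lost without any 1 of 6 of the 8 arrays, namely any Ramos array or Dox1000 replicate 1 or 2, with a limma adjusted p of up to 0.121.

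DNAJA1 took the opposite direction before the last step. It was higher than in Ramos by log2 changes of 0.30 in Dox250, 0.34 in Dox500 and 0.43 in Dox750 (SE 0.11, limma adjusted p = 0.023, 0.0113 and 0.00149), with 0.17 in Dox100 not passing (limma adjusted p = 0.209). In Dox1000 it stood at -0.21 ± 0.11 against Ramos and did not pass (limma adjusted p = 0.0996). Its log2 levels in Ramos were 12.41, 12.36, 12.52 and 12.36, below all arrays of Dox500 (12.68, 12.96, 12.66 and 12.70). The levels in Dox250, 12.34, 12.83, 12.89 and 12.79, overlapped Ramos through replicate 1, and the Dox250 call was lost without any 1 of 5 of its 8 arrays, Ramos 2 or 4 or Dox250 2, 3 or 4 (limma adjusted p of up to 0.0875). Without Dox500 replicate 2 the Dox500 call was lost too (0.27, limma adjusted p = 0.0528). Scaling arrays by their medians, in place of quantiles, moves the median log2 change of all genes against Ramos by about -0.1 or more in the later lines (to -0.13 in Dox250, -0.14 in Dox500, -0.11 in Dox750 and -0.13 in Dox1000). Those medians are over all 47323 probes, of which at most 15564 were detected on an array, so median scaling rests on undetected probes. Under that scaling DNAJA1 was not called in Dox250 (0.18, limma adjusted p = 0.155) or Dox500 (0.19, limma adjusted p = 0.136), kept its call in Dox750 (0.34, limma adjusted p = 0.00832) and was called lower in Dox1000 (-0.33, limma adjusted p = 0.00789). HSPH1 had log2 changes of 0.08, 0.15, 0.22 and 0.31 in Dox100, Dox250, Dox500 and Dox750 against Ramos (SE 0.14), none of which passed (limma adjusted p = 0.688, 0.429, 0.217 and 0.0811). The Dox250 value became 0.34 and passed without Dox250 replicate 1 (limma adjusted p = 0.0186).

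DNAJB1, the J-domain protein that heat induces along with HSP70, was lower in Dox1000 than in Ramos. Its log2 levels were 8.56, 9.05, 8.61 and 8.79 in Dox1000 and 9.26, 9.25, 9.32 and 9.10 in Ramos. The groups did not overlap, and Dox1000 replicate 2 came nearest to Ramos. The log2 change was -0.48 ± 0.14 (limma adjusted p = 0.00736). Against Dox750, with 9.16, 9.25, 9.09 and 8.95, the log2 change of -0.36 ± 0.14 did not pass (limma adjusted p = 0.079), and it passed without Dox1000 replicate 2 (-0.46, limma adjusted p = 0.035). In Dox250 the change against Ramos, -0.22, did not pass (limma adjusted p = 0.237) but did without Dox250 replicate 2 (-0.37, limma adjusted p = 0.0264). No neighbours in the order of its line means differed beyond their spread.

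BAG3, which binds HSP70 and links it to autophagy and which HSF1 raises, was the only gene of the 10 that rose in every resistant line. Its log2 levels were 6.54, 6.50, 6.13 and 6.39 in Ramos, 7.29, 7.28, 6.55 and 7.06 in Dox100, and 7.44, 7.23, 7.55 and 7.38 in Dox250. They were 6.82, 6.90, 7.24 and 6.94 in Dox500, 7.16, 7.29, 7.17 and 7.56 in Dox750, and 7.13, 7.27, 7.24 and 7.21 in Dox1000. Every array of the resistant lines lay above all 4 Ramos arrays, Dox100 replicate 3 by the least. The log2 changes against Ramos in the 5 lines, by dose, were 0.65, 1.01, 0.58, 0.91 and 0.82 (SE 0.14), with limma adjusted p of 0.00047, 2.50e-06, 0.00136, 9.02e-06 and 2.86e-05. BAG3 is dim, with raw intensities of 190.6 to 344.5 in the resistant lines and 210.8 to 230.6 in Ramos, and the size of its change depends on the background correction. Without it the log2 changes were 0.30, 0.49, 0.26, 0.43 and 0.38, and under median scaling 0.61, 0.87, 0.40, 0.76 and 0.72, and all 5 passed in limma under both. In the order of line means Dox500 and Ramos, the lowest neighbours, differed, and no other neighbours did. BAG3 was the gene called at the step to Dox500, lower than in Dox250 by -0.42 ± 0.14 (limma adjusted p = 0.0435), with overlapping arrays. That call was lost without any 1 of 6 of the 8 arrays, all but Dox250 replicate 2 and Dox500 replicate 3 (limma adjusted p of up to 0.126). BAG3 had no exact match to the heat shock element letters in its window.

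HSP90AB1, the constitutive HSP90, was lower than in Ramos in every resistant line. Its log2 levels were 13.58, 13.47, 13.59 and 13.52 in Ramos, 13.42, 13.30, 13.30 and 13.32 in Dox100, and 13.22, 13.28, 13.20 and 13.45 in Dox250. They were 13.27, 13.26, 13.30 and 13.26 in Dox500, 13.15, 13.31, 13.24 and 13.18 in Dox750, and 12.97, 12.82, 12.89 and 12.88 in Dox1000. No resistant array reached the lowest Ramos array, and all Dox1000 arrays lay below those of the other 5 lines. The log2 changes against Ramos, by dose, were -0.21, -0.25, -0.27, -0.32 and -0.65 (SE 0.06), with limma adjusted p of 0.0114, 0.00253, 0.00152, 0.000235 and 1.45e-08. Only Ramos and Dox100, and Dox750 and Dox1000, differed among the neighbours in the order of line means. The last step was -0.33 ± 0.06 (limma adjusted p = 0.000677). The Dox100 call was lost in a fit of the 8 arrays compared alone (limma adjusted p = 0.0637).

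HSP90AA1, the stress-inducible HSP90, was called lower than in Ramos in Dox1000 and in none of the other 4 lines. Its log2 levels there were 13.18, 13.32, 13.20 and 13.40, against 13.85, 13.87, 13.71 and 13.92 in Dox750 and 13.91, 13.79, 13.96 and 13.89 in Ramos. Dox1000 was below both with no overlap. The log2 change was -0.61 ± 0.08 against Ramos (limma adjusted p = 1.85e-06) and -0.56 ± 0.08 against Dox750 (limma adjusted p = 4.54e-05). Its second kept probe gave -0.66 and -0.58 in these comparisons, and its remaining probe, detected on 2 of 24 arrays, was not kept. In the other 4 lines the log2 changes against Ramos ran from -0.18 to -0.05 and none passed, although the value in Dox250 passed without its replicate 2 (-0.23, limma adjusted p = 0.0335) and under median scaling (-0.26, limma adjusted p = 0.0409). The Dox100 value passed without background correction and with the values of the authors' deposited table (-0.18, limma adjusted p = 0.048 in both), and with an intensity trend (-0.18, limma adjusted p = 0.0382). HSP90AA1 and HSPA8 were the genes most alike each other in log2 level over the 24 arrays (Pearson r = 0.94), which share their line means.

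The mitochondrial pair HSPD1 and HSPE1, which lie head to head and work as 1 chamber and lid, did not show the same calls. HSPD1 had log2 levels of 13.73, 13.60, 13.74 and 13.73 in Dox1000, 14.03, 13.82, 13.93 and 13.95 in Dox750 and 14.10, 14.05, 13.9958 and 14.15 in Ramos. HSPE1 had 13.04, 13.05, 12.88 and 13.15 in Dox1000, 13.19, 13.16, 13.32 and 13.37 in Dox750 and 12.91, 13.32, 13.09 and 12.94 in Ramos. HSPD1 in Dox1000 lay below both other lines, while HSPE1 in Dox1000 lay below Dox750 only and overlapped Ramos. HSPD1 fell by a log2 change of -0.37 ± 0.07 against Ramos (limma adjusted p = 8.07e-05) and -0.23 ± 0.07 against Dox750 (limma adjusted p = 0.0169). HSPE1 was at -0.03 ± 0.10 against Ramos (limma adjusted p = 0.81) and -0.23 ± 0.10 against Dox750 (limma adjusted p = 0.102), neither of which passed. The difference between the genes was not tested. The last-step call of HSPD1 was lost without Dox750 replicate 1 (-0.20, limma adjusted p = 0.0629) or Dox1000 replicate 2 (-0.20, limma adjusted p = 0.0601), under median scaling (-0.24, limma adjusted p = 0.0537) and with its next brightest probe (-0.25, limma adjusted p = 0.161). The next brightest probe gave -0.49 against Ramos (limma adjusted p = 0.00205), a dimmer one -0.58 (limma adjusted p = 0.0775), and the fourth was not kept. Under median scaling HSPD1 was also called lower than in Ramos in Dox250, Dox500 and Dox750 (-0.23, -0.23 and -0.22, limma adjusted p = 0.0274, 0.0287 and 0.0405). HSPE1 in Dox750 was at 0.20 against Ramos (limma adjusted p = 0.102) and passed without Ramos replicate 2 (0.28, limma adjusted p = 0.0209). The second HSPE1 probe was at -0.12 in both comparisons, with a wide SE of 0.32. No neighbours in the order of HSPE1 line means differed beyond their spread.

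HSPB1, the small heat shock protein also called HSP27, had its own course and fell early in the lineage. Its log2 levels were 12.41, 12.38, 12.22 and 12.34 in Ramos, 11.91, 11.92, 11.89 and 11.83 in Dox100, and 11.24, 11.27, 11.17 and 11.24 in Dox250. They were 11.19, 11.08, 11.14 and 11.05 in Dox500, 11.21, 11.18, 11.30 and 11.20 in Dox750, and 11.38, 11.41, 11.23 and 11.55 in Dox1000. Ramos, Dox100 and the later 4 lines formed levels that did not overlap, with Dox1000 the highest of the later ones on average. The log2 changes against Ramos, by dose, were -0.45, -1.11, -1.23, -1.12 and -0.95 (SE 0.07), with limma adjusted p of 8.41e-06, 4.40e-12, 7.26e-13, 3.35e-12 and 5.80e-11. The step from Dox100 to Dox250 was -0.66 ± 0.07 (limma adjusted p = 2.89e-07), and the last step, 0.17 ± 0.07, did not pass (limma adjusted p = 0.069) but did without Dox1000 replicate 3 (0.23, limma adjusted p = 0.0203). Neighbours in the order of line means differed between Ramos and Dox100 and between Dox100 and Dox1000. The 10 measured genes nearest to HSPB1 on chromosome 7, 5 on either side, were chosen after values were seen. Their median log2 change was 0.25 in Dox1000 against Ramos, with 5 higher and 0 lower (27.6% and 29.7% of all genes). At the step to Dox250 their median log2 change was -0.14. There 1 of the 10 was lower, TMEM120A (-0.23, limma adjusted p = 0.0474), beside 8.25% of all genes. The 8 other small heat shock genes on the list, among them CRYAB and HSPB8, were not detected in any line.

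Within a line, several of the genes had their lowest or highest level on the same array. In Dox250 replicate 1 was the lowest array for 6 of the 10 genes (HSPA8, HSPH1, HSP90AA1, HSPD1, DNAJA1 and DNAJB1), and replicate 2 the highest for 6. In Dox100 replicate 4 was the lowest for 7. Single arrays of other lines were extreme for 5 of the 10 genes, namely Ramos replicate 3 (highest), Dox750 replicates 2 (lowest) and 4 (highest) and Dox1000 replicate 1 (lowest). HSPH1 spread the most, with log2 levels of 10.61, 11.45, 11.45 and 11.28 in Dox250 (SD 0.40) beside an SD of 0.06 in Ramos. DNAJB1 had an SD of 0.38 in Dox250 (8.55, 9.49, 8.97 and 9.06) and of 0.09 in Ramos. HSPB1 in Dox250 had an SD of 0.04. Arrays of a line correlated with r of 0.992 to 0.997 over all kept probes, and these deviations were not tested. The share of all genes with their extreme on these arrays was not counted, so the deviations cannot be called particular to the 10 genes.

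**Figure D4:**
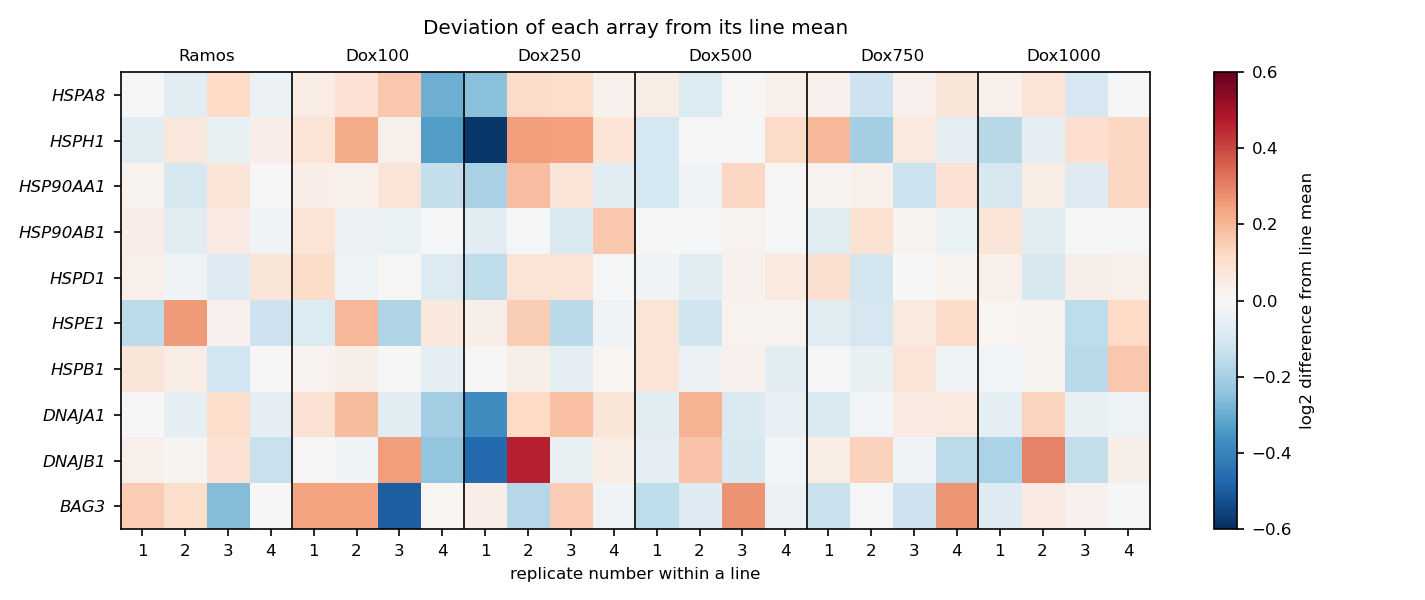
Log2 difference of each array from the mean of its line for the 10 genes. Rows are genes, columns are the 4 replicate numbers within each line, and blue is below and red above the line mean. Dox250 replicate 1 is below its line mean for HSPA8, HSPH1, HSP90AA1, HSPD1, DNAJA1 and DNAJB1, and HSPB1 varies more in Dox1000 than in Dox250.

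Genes most alike each of the 10 in log2 level over the 24 arrays were sought among all 9533 genes, as a description, since the arrays share 6 line means. For HSPA8 and HSP90AA1, beside each other, these were DHX37 (r = 0.91 and 0.87) and POP1 (r = 0.89 and 0.87). HSPH1 was most like DNAJA1 (r = 0.86) and then CHORDC1 (r = 0.83), an HSP90 co-chaperone, and HSD17B10 (r = 0.76). After HSPH1, DNAJA1 was most like ABI3 and TFRC (r = 0.82 each). HSP90AB1 was most like MRPL4 (r = 0.94), CYB5D1 and MTHFD1 (r = 0.91 and 0.90), and HSPD1 most like AATF (r = 0.87), PPIH (r = 0.86) and HSPA8 (r = 0.85). HSPB1 had the closest likeness of all, to CENPV, ANXA2 and ZDHHC8 (r = 0.97, 0.97 and 0.96). BAG3 was most like BCL2L11, CD1C and MS4A1 (r = 0.87 each). For DNAJB1 the genes were NUP133, HSP90AA1 and TIA1 (r = 0.78, 0.75 and 0.74), and for HSPE1 they were TPRKB, CNOT9 and PSMD12 (r = 0.76, 0.74 and 0.71).

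Other HSP70 genes and partners were called lower in part. Of the 6 other measured HSP70 and HSP110 genes, 3 were lower than in Ramos and 0 higher (29.7% and 27.6% of all genes), and 4 were lower than in Dox750 (11.7% of all genes). HSPA4, an exchange factor close to HSPH1, was at log2 changes of -0.37 ± 0.12 against Ramos and -0.46 ± 0.12 against Dox750 (limma adjusted p = 0.0126 and 0.00847), and HSPA4L, its close relative, at -0.63 ± 0.13 and -0.52 ± 0.13 (limma adjusted p = 0.000296 and 0.00636). The Dox1000 and Ramos arrays of HSPA4 overlapped. HSPA2, an HSP70 best known from testis, was detected on all 4 Ramos arrays and on none of Dox1000, where it was at least 1.84-fold lower. HSPA1B, the stress-inducible HSP70, was at -0.68 ± 0.16 in Dox1000 against Dox750 (limma adjusted p = 0.00482), and it was not called against Ramos. HSPA1A and HSPA1B have near-identical sequences, so the HSPA1B probe may read both, while the probes named for HSPA1A and HSPA6 were not detected. Of 7 other exchange and ubiquitin partners 4 were lower in Dox1000 than in Ramos and none higher, and 7 were lower under median scaling. Under that scaling 5473 of the 9533 genes were called in the same comparison, 34.6% of them higher. HSPBP1, another exchange factor, was at -0.60 ± 0.12, BAG4 at -0.42 ± 0.14, ST13, which binds HSP70 and HSP90, at -0.39 ± 0.11, and BAG5 at -0.30 ± 0.09 (limma adjusted p = 0.00017, 0.0156, 0.00329 and 0.00501). The lists' median log2 changes in Dox1000 against Ramos were -0.34 and -0.30, beside -0.02 over all genes.

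Other J-domain genes were mixed. Of the 13 measured, 5 were lower and 1 higher in Dox1000 than in Ramos (median log2 change -0.19), beside 29.7% and 27.6% of all genes, and 3 were lower and 1 higher than in Dox750, beside 11.7% and 12.1%. Under median scaling 8 were lower than in Ramos and 1 lower than in Dox750. That scaling called 5473 of the 9533 genes against Ramos (34.6% of them higher) and 2006 against Dox750 (50.9% of them higher). DNAJB6, known for holding polyglutamine proteins in solution, was at -1.37 ± 0.11 and DNAJB5 at -0.41 ± 0.16 (limma adjusted p = 5.59e-10 and 0.0366, DNAJB5 with overlapping arrays). DNAJC2, which sits on the ribosome, was at -1.21 ± 0.23 (limma adjusted p = 0.000121), detected on 2 of 4 Dox1000 arrays. DNAJB2, a J-domain protein that steers clients to the proteasome, was higher at 0.85 ± 0.11 (limma adjusted p = 1.36e-06). These counts also moved with single arrays. The count lower than in Ramos was 3 without Ramos replicate 2 or 4 or Dox1000 replicate 2, and the count lower than in Dox750 was 0 without Dox750 replicate 1 or 4 or Dox1000 replicate 1 or 2 and 1 without Dox750 replicate 2 or Dox1000 replicate 4.

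HSP90 co-chaperones were split likewise. Of 10 measured, 3 were lower and 1 higher in Dox1000 than in Ramos (median log2 change -0.08), a share of lower genes like that of all genes (29.7%) and of higher ones below it (27.6%). Against Dox750 4 were lower and 0 higher (median -0.22), beside 11.7% and 12.1% of all genes. STIP1, which joins HSP70 to HSP90, was at -0.68 ± 0.13 against Ramos and -0.62 ± 0.13 against Dox750 (limma adjusted p = 0.000127 and 0.00147). CHORDC1 was at -0.52 ± 0.19 and -0.76 ± 0.19 (limma adjusted p = 0.0259 and 0.00601), and SUGT1, a partner of HSP90 at kinetochores and immune receptors, at -0.57 ± 0.11 against Ramos (limma adjusted p = 0.000206). PPID, an immunophilin, was higher than in Ramos at 1.10 ± 0.21 (limma adjusted p = 0.00014), with 2 of 4 Ramos arrays detected. Without Ramos replicate 1 the counts against Ramos were 2 higher and 2 lower. Without background correction, and likewise under median scaling, 5 were lower against Ramos. These settings called 5557 and 5473 of the 9533 genes in that comparison, 48.1% and 34.6% of them higher. AHSA1 had no probe.

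In mitochondria, 5 of the 11 other measured chaperone and protease genes were lower in Dox1000 than in Ramos and none was higher (median log2 change -0.07), beside 29.7% and 27.6% of all genes. The proteases HTRA2 and LONP1 were at -0.70 ± 0.12 and -0.34 ± 0.07, TRAP1, the HSP90 of mitochondria, at -0.48 ± 0.07, and GRPEL1, the exchange factor of the mitochondrial HSP70, at -0.66 ± 0.08 (limma adjusted p = 3.35e-05, 0.000272, 4.52e-06 and 4.06e-07). HSPA9, the mitochondrial HSP70 itself, was at -0.26 ± 0.07 in Dox1000 against Dox750 (limma adjusted p = 0.0158), among 4 lower and 2 higher at that step (11.7% and 12.1% of all genes). The count of 2 higher became 1 without any 1 of 7 of the 8 arrays, all but Dox1000 replicate 4, and under median scaling, and the count lower became 2 without Dox1000 replicate 3. In the cytosol, the TRiC chaperonin and prefoldin, which fold actin and tubulin, had 8 of 14 measured subunits lower in Dox1000 than in Dox750 and none higher (median log2 change -0.30). Against Ramos 5 were lower and 2 higher (29.7% and 27.6% of all genes). TCP1 and CCT7 of TRiC were at -0.69 ± 0.11 and -0.38 ± 0.09 (limma adjusted p = 1.92e-05 and 0.00135), while PFDN5 of prefoldin was higher at 0.76 ± 0.07 (limma adjusted p = 2.12e-09) and PFDN4, undetected in Ramos, at least 1.39-fold higher.

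In Dox100 against Ramos, where 24.1% of all genes were called higher and 22.2% lower, none of these lists had more than 3 genes called in a direction. The other HSP70 and HSP110 genes had 0 higher and 1 lower of 6, the exchange and ubiquitin partners 0 and 1 of 7, the J-domain genes 2 and 1 of 13 and the HSP90 co-chaperones 2 and 1 of 10. The other mitochondrial genes had 1 higher and 3 lower of 11, and TRiC and prefoldin 3 and 0 of 14. Single arrays moved some of these small counts. The mitochondrial gene called higher was lost without Ramos replicate 3 or 4 or Dox100 replicate 3 or 4, the co-chaperone called lower without Dox100 replicate 4, and 1 of the J-domain genes called higher without Ramos replicate 1 or Dox100 replicate 2.

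**Figure D5:**
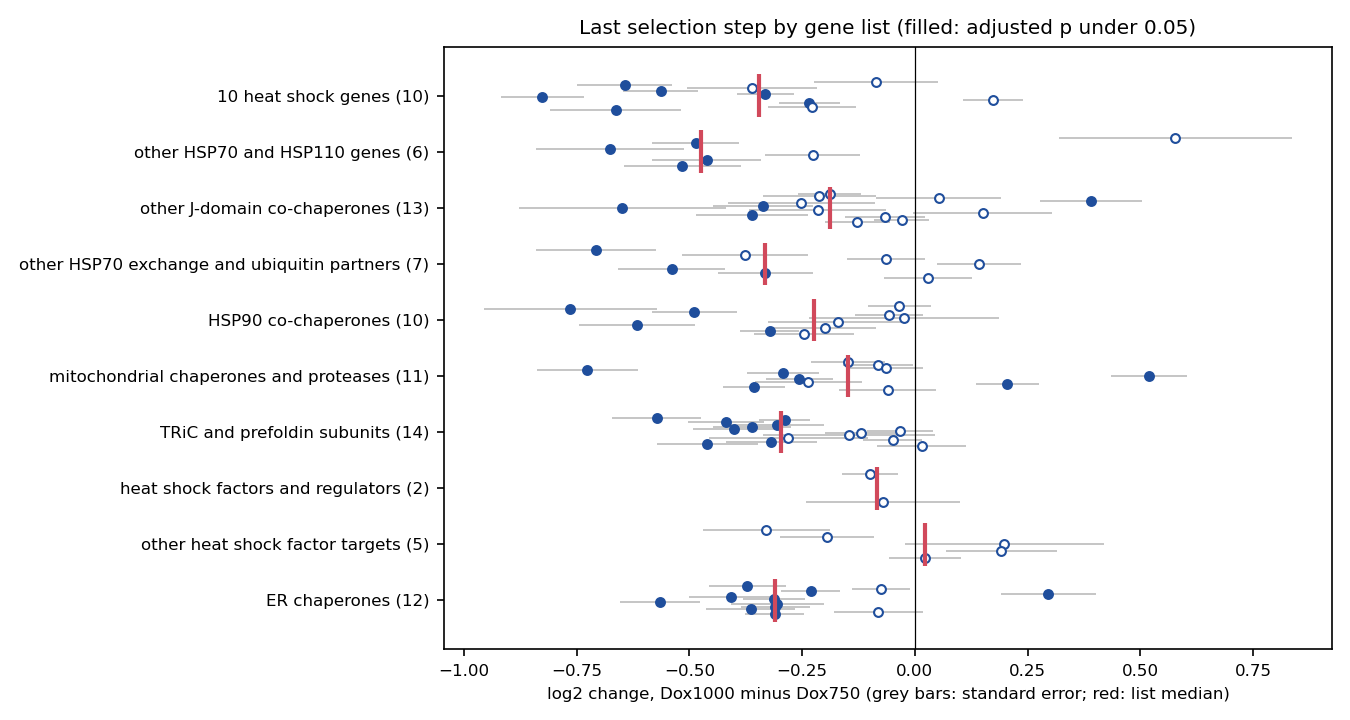
Log2 change in Dox1000 against Dox750 for the 10 genes and 9 further lists, with the number of measured genes in brackets. Points are genes, grey bars are standard errors, filled points passed at an adjusted p under 0.05 in limma, and red bars are list medians. The 10 heat shock genes have a median of -0.35, TRiC and prefoldin of -0.30 and ER chaperones of -0.31, and 6, 8 and 9 of their points are filled left of 0.

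The transcription factor HSF1 was dim. It was detected on 3 of 4 Ramos arrays and on none of Dox1000, where it was at least 1.17-fold lower than in Ramos (limma adjusted p = 0.0376), with overlapping arrays. That call was lost without Ramos replicate 2, 3 or 4 or Dox1000 replicate 2 or 4, and without background correction. HSF2 had no probe. Of 5 other measured genes that HSF1 is known to raise, none passed at the last step by limma, and 1 was called lower there without background correction and in the authors' deposited table. Against Ramos 3 were higher and 1 lower in Dox1000 (median log2 change 0.21), beside 27.6% and 29.7% of all genes. Under median scaling 2 were higher and 1 lower, where 34.6% of the 5473 genes called were higher. DEDD2 was at 0.47 ± 0.10 and the ubiquitin gene UBB at 0.21 ± 0.08 (limma adjusted p = 0.000652 and 0.03). HMOX1, undetected in Ramos, was at least 1.03-fold higher, and IER5, an activator of HSF1, was at -0.67 ± 0.12 (limma adjusted p = 9.06e-05). The arrays of HMOX1 and UBB overlapped between the lines.

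Chaperones of the endoplasmic reticulum, raised by the unfolded protein response of that compartment, were compared with the 10 genes. Of 12 measured, 8 were higher and 0 lower in Dox100 than in Ramos, at a median log2 change of 0.43. Of the 10 heat shock genes 1 was higher and 2 lower there, at a median of -0.04. Among all genes 24.1% were called higher and 22.2% lower in that comparison. In Dox1000 4 of the 12 endoplasmic reticulum genes were higher than in Ramos and 1 lower, beside 27.6% and 29.7% of all genes. HSPA5, the HSP70 of the endoplasmic reticulum, was at 0.49 ± 0.09, its partner DNAJC3 at 0.46 ± 0.09, and HSP90B1, the HSP90 there, at 0.72 ± 0.07 (limma adjusted p = 7.43e-05, 0.000285 and 1.02e-08). The disulfide isomerase PDIA4 was lower at -0.82 ± 0.10 (limma adjusted p = 3.85e-07). At the last step this list too was mostly lower, with 9 lower and 1 higher (11.7% and 12.1% of all genes). The median log2 change was -0.31. HSPA5 was at -0.57 ± 0.09 and HSP90B1 at -0.31 ± 0.07 in Dox1000 against Dox750 (limma adjusted p = 8.74e-05 and 0.00244). In Dox1000, HSPA5 and HSP90B1 lay above all Ramos arrays and below all Dox750 arrays, whereas HSPA8 and HSP90AA1 lay below both. The difference between the lists was not tested. The 1 higher gene of this list, DNAJB9, named after its values were seen (0.30, limma adjusted p = 0.0484), lost its call without Dox750 replicate 1, 2 or 4 or Dox1000 replicate 1 or 2. Under median scaling, 3 of this list were higher and 4 lower in Dox1000 than in Ramos, where 34.6% of the 5473 genes called were higher.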

How the data were processed

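Ramos and 5 doxorubicin-resistant lines were measured on 24 Illumina bead arrays, 4 a line. The deposited non-normalized table holds the authors' bead intensity and a detection p-value per probe, with lumi named in the submitters' processing notes. The authors' deposited log2 table equalled log2 of the quantile-normalized intensity within 5e-09 in 24 of 24 columns. Here limma 3.58.1 (R 4.3.3) corrected background (normexp, offset 16, from detection p-values), quantile-normalized and took log2. Probes detected at p under 0.01 on at least 3 arrays of a line were kept (15765 of 47323, 33.3%). The brightest kept probe stood for a gene. limma fitted 6 line means over 24 arrays, and calls had a Benjamini-Hochberg adjusted p under 0.05 over all kept probes. The labels used name no slide or scan batch, so a part of batch in the differences between lines could not be checked. "At least" folds divide the detected line's mean by a floor for the undetected one, which on each array is its dimmest detected probe or the gene's own signal, whichever is brighter. Named list genes were the up to 4 called with the largest change in Dox1000 against Ramos, plus HSPA1A, HSPA1B, HSPA9, HSPA4, HSPA5, HSF1 and HSF2. The 10 genes and the lists were chosen with earlier results of these data known. Symbols came from the platform annotation, updated through RefSeq (30113 probes with 1 symbol, 8 with several, 17202 with none). Alternatives covered background, scaling, filter, probe choice, threshold, fit and leaving out each array. Fits were also run on simulated data with changes planted in a small part of the probes, in Dox1000 alone. In the real data 57.3% of genes were called in Dox1000 against Ramos, so the simulation does not test normalization under such wide change.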

Additional observations from a re-analysis of the deposited data

Results flagged for a closer look

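Of 60 groups of 4 arrays (10 genes in 6 lines), 3 held an array set apart from the others by Dixon's criterion, and chance flags about 1 in 20. HSPD1 was lowest on Dox1000 replicate 2, at a log2 level of 13.60, where the other arrays of that line ran from 13.73 to 13.74. DNAJA1 was highest on Dox1000 replicate 2, at 12.34, against 12.15 to 12.17 on the others. DNAJA1 was also highest on Dox500 replicate 2, at 12.96, against 12.66 to 12.70.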

How the results depend on the processing

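Of the log2 changes recomputed under the alternatives, 1629 kept their side of the threshold, 36 passed it anew and 45 no longer did. These totals hold repeats. A gene with 1 kept probe has no next brightest probe, so its main value was counted again, and the authors' deposited table repeats the fit without background correction. None of the changes called in the main fit reversed direction. Another threshold, filter, trend or block, or a fit of the 8 arrays compared, leaves the log2 change as it was and could not reverse it. Changes that were not called could change sign, as HSPE1 did in Dox250 against Ramos (0.11, and -0.03 under median scaling). For Dox100 against Ramos, 5 of the 10 genes were called in place of 3 without background correction, with the authors' deposited table and with an intensity trend, and for Dox750 against Ramos 7 in place of 4 with the trend. For Dox250 against Ramos, 3 in place of 5 were called without a filter or at an adjusted p under 0.01. For Dox500 against Dox250, 0 in place of 1 were called in limma without a filter, at an adjusted p under 0.01, and with the replicate number as a block (BAG3, adjusted p = 0.0606). Leaving out each array gave 3 to 4, 4 to 6, 3 to 4, 4 to 5 and 7 to 8 genes called against Ramos, by dose, and 1 to 2, 0 to 1, 0 and 5 to 7 at the 4 steps. The 2 genes at the step to Dox250 were HSPB1 and, without Dox100 replicate 2, BAG3 (0.43, limma adjusted p = 0.0488). Same-numbered arrays of different lines did not deviate together (r of -0.24 to 0.18 over 60 pairs), and 4 of 24 arrays correlated best with their own number. Median scaling moved the share of called genes that were higher, by dose against Ramos, to 32.8% in Dox250 (48.4% with quantiles), 30.4% in Dox500 (52.0%), 36.1% in Dox750 (50.9%) and 34.6% in Dox1000 (48.2%), and at the steps to 14.6% (38.7%), 40.4% (53.6%) and 68.0% (49.7%) before the last. Lists under other scalings and without single arrays were examined after seeing the data. Genes detected on some arrays only, such as HSF1, are limited by signal over background.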

Other observations

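The 10 measured genes nearest to HSPA8 on chromosome 11 were chosen after values were seen. SNORD14C and SNORD14D, among them, lie within introns of HSPA8. The median log2 change of the 10 was -0.56 in Dox1000 against Ramos, with 2 higher and 7 lower (27.6% and 29.7% of all genes). In Dox100, Dox250, Dox500 and Dox750 their median against Ramos was -0.29, -0.28, -0.31 and -0.405. In Dox1000 against Dox750 their median was -0.05, with 0 higher and 1 lower in limma (12.1% and 11.7% of all genes). The lower one was the small nucleolar RNA gene SNORD14C (-1.04, limma adjusted p = 0.000125).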
